A study of Mus musculus with 17 samples.

Results

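The genes described here are those whose RNA level stayed within a 2-fold range through 5 consecutive stages of mouse spermatogenesis. The genes were selected on these stage levels: a gene was taken when its lowest stage mean was at least 5 RPKM (reads per kilobase of exon per M (mega) reads of the library) and its highest stage mean was at most 2 times the lowest, each stage mean being the mean of 3 libraries. The rule found 195 of the 24594 genes in the authors' gene table. Of 1804 genes that reached 5 RPKM in every stage, these 195 were 10.8%. The stage levels chose the genes, so those levels are given as a description and no test of a stage difference is given for these genes.

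RNA was sequenced from testis cells of C57BL/6JRj mice sorted by flow cytometry. Cells stained with Hoechst 33342 and SYTO 16 gave 5 populations of 3 libraries. LZ are spermatocytes in leptotene and zygotene of meiosis, PD those in pachytene and diplotene, RS the round spermatids that follow, and EES and LES the early and late elongating spermatids. The remaining 2 libraries, stained with Hoechst 33342 alone, were round spermatids titled as juvenile at 23 days post partum (RS23) and elongating spermatids sorted by a Prm1-EGFP reporter (PrmES). The characteristics labels give an age of 3 months and the genotype WT for all 17 libraries, which differs from the titles of RS23 and PrmES, and the titles were followed here. The labels do not say whether the 3 libraries of a stage came from separate animals, so the spread between them, and any p-value, may be technical. In sorted bulk samples fewer cells of a type and less RNA per cell cannot be told apart.

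In spermatogenesis, spermatocytes pass through meiosis and become round spermatids, which elongate while histones are replaced by transition proteins and then protamines. Transcription stops as the nucleus condenses, and many messenger RNAs are made early, stored and translated later. Genes needed by nearly every cell, such as those for ribosomes, protein folding and protein turnover, are often called housekeeping genes, and some of them serve as references when RNA levels of other genes are compared.

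Library totals ran from 90.6 to 159 M reads, and counting error was small for these genes: the fewest reads in any of the 15 stage libraries were 50 for 1 gene, the miRNA locus Mir5121, and the median of that minimum over the 195 genes was 4328. The 8 elongating spermatid markers summed to 49728 to 129595 RPKM in EES and 102198 to 111745 RPKM in LES, against 834 to 1398 in LZ, 74.4 to 280.3 in PD and 866 to 1758 in RS. The 6 round spermatid markers were highest in a library of another label. They summed to 177 to 182 RPKM in RS and to 65.4 to 511 RPKM in EES, where EES replicate 2 was above every RS library. LZ replicate 3 and EES replicate 2 stood apart from their stages. The median deposited log2 value was 9.10 in LZ replicate 3, against 8.83 and 8.66 in the other LZ libraries. It was 8.02 in EES replicate 2, against 6.60 and 6.99 in the other EES libraries. The 6 PD spermatocyte markers summed to 209 RPKM in LZ replicate 3, against 74.3 and 67.3 RPKM in the other LZ libraries. EES replicate 2 held the lowest elongating spermatid sum of EES, 49728 RPKM. Without both libraries the rule found 182 genes, 171 of them among the 195, with 33 ribosomal protein genes. The 14 Sertoli cell markers, 9 of which passed the filter on low values, summed to between 103 and 182 RPKM in LZ, between 1.94 and 2.36 in PD, between 2.86 and 4.27 in RS, between 10.6 and 33.4 in EES and between 21.1 and 77.00 in LES, and none of the 14 was at 0 in a whole stage. The highest LES sum was that of LES replicate 3, against 40.8 and 21.1 RPKM in the other LES libraries. The 6 macrophage markers also summed highest there, to 75.6 RPKM, against 20.4 and 30.9 RPKM in the other LES libraries. Without LES replicate 3 the rule found 194 genes, 192 of them among the 195. The part of Sertoli cells and macrophages in the levels below was not tested.

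The 195 genes covered a wide range of levels but a narrow range of change. Their means over the 5 stages ran from 6.07 to 773 RPKM with a median of 16.2 RPKM, 18 of them above 50 RPKM and 33 under 10 RPKM. The ratio of highest to lowest stage mean had a median of 1.66, and 43 genes stayed under a ratio of 1.5. Over all 1804 genes that reached 5 RPKM in every stage, the median ratio was 5.33, and 536 of them had a ratio above 10. The limit cut through a continuous range. Atp6v1c1, which encodes a subunit of the vacuolar proton pump, lay just inside at a ratio of 1.99, and Srp72, part of the signal recognition particle, at 1.999 (means of 17.9 ± 0.676 RPKM in PD and 8.95 ± 0.588 RPKM in LES, ± SD over 3 libraries here and below). Gosr2, a Golgi SNARE, lay just outside at 2.001 and the splicing kinase Srpk1 at 2.01, and a further 144 genes had ratios between 2 and 2.5. At the level limit, the zinc finger gene Zfp664 was just inside with a lowest mean of 5.005 RPKM in RS, and the linker histone gene H1f10 just outside with 4.88 RPKM in RS.

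**Figure D1:**
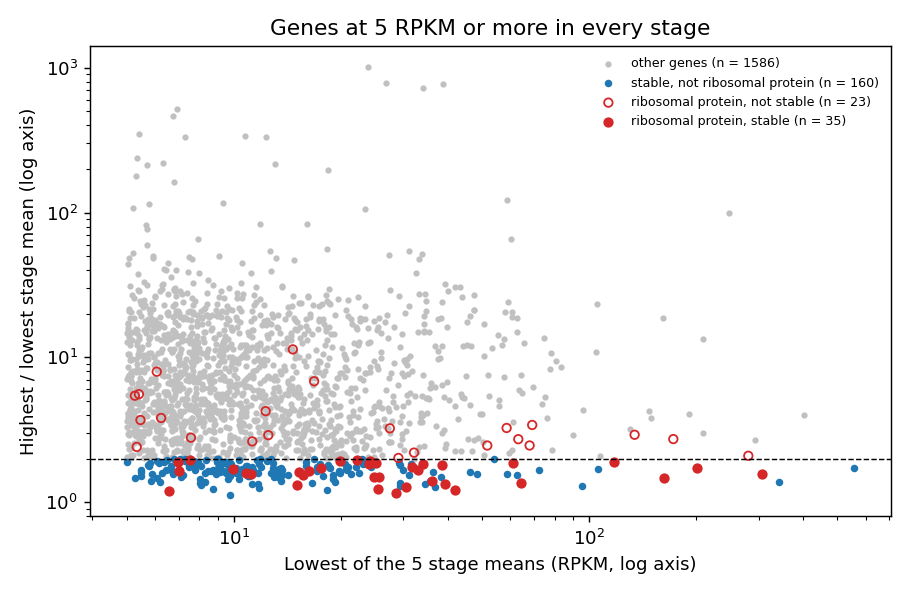
Each point is 1 of the 1804 genes at 5 RPKM or more in every stage, with the lowest of its 5 stage means in RPKM on the horizontal log axis and the ratio of highest to lowest stage mean on the vertical log axis. The 195 stable genes lie on or under the dashed line at a ratio of 2, and 35 of the 58 ribosomal protein genes in the plot are among them.

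The stable levels are stable relative to all reads of a library, which is what RPKM measures. Most other genes did not hold their level on that scale. A ratio of at most 2 at any level above 0 was found for 383 of the 24594 genes, including the 195. The rule chose the 195 for flat levels on this scale, so their contrast with other genes is built in. The median level of the 13260 genes that passed the filter was 4.80 RPKM in LZ and 1.39 RPKM in LES, while the median of the stable genes was 16.2 RPKM in LZ, 17.8 in PD, 16.0 in RS, 15.6 in EES and 15.8 in LES. The typical stable gene ranked at percentile 84.0 of those genes in LZ, 76.8 in RS and 85.6 in LES. When every library was instead scaled to the same median over those genes, which shifted single libraries by between -1.44 (EES replicate 1) and 1.06 (LZ replicate 3) on the log2 scale, the rule found 137 genes and only 4 of them were among the 195: Sar1a, Cul5, Rnf185 and Npm3-ps1. On that scale the median of the 195 genes was 9.08 RPKM in LZ, 13.9 in PD, 10.5 in RS, 30.4 in EES and 31.2 in LES, and each of the 195 was highest in EES (83 genes) or LES (112 genes). Scaling to reads that fell in genes gave 187 genes with 122 shared, and quantile normalization gave 179 with 50 shared. Which of these scales is closest to RNA per cell was not tested.

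**Figure D2:**
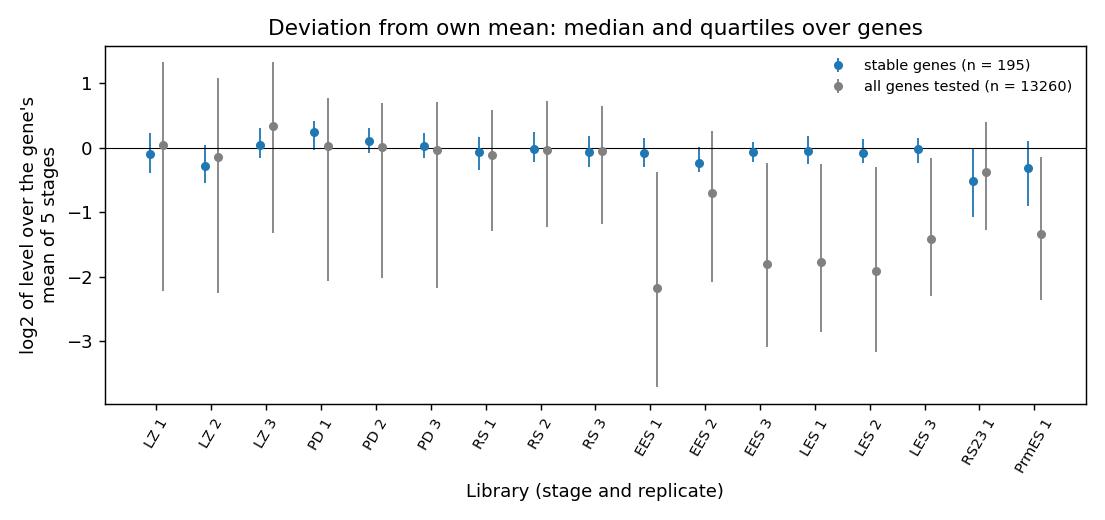
For each of the 17 libraries, points give the median and bars the quartiles over genes of the log2 of a gene's level divided by its own mean over the 5 stages, in blue for the 195 stable genes and in grey for the 13260 genes tested. The stable genes have medians between -0.28 (LZ replicate 2) and 0.24 (PD replicate 1) in the 15 stage libraries, and the genes tested go down to -2.18 in EES replicate 1. The rule used the 15 stage libraries, so the small deviations of the stable genes there are built in.

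Within the 2-fold range the genes peaked in different stages. The highest mean was in PD for 73 genes, LZ for 42, RS for 34, LES for 28 and EES for 18. The lowest mean was in LZ for 65, RS for 49, LES for 34, EES for 28 and PD for 19. Over single libraries, 61 of the 195 genes kept all 15 libraries within 2-fold of each other, and the ratio of highest to lowest library had a median of 2.19 and a maximum of 3.24, for the cullin gene Cul5. The coefficient of variation among the 3 libraries of a stage had a median over the stable genes of 14.7% in LZ, 8.99% in PD, 11.5% in RS, 15.6% in EES and 6.88% in LES.

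Qars, the glutaminyl-tRNA synthetase that charges the tRNA for glutamine (NCBI Gene 97541, chr9:108508005-108515941, GRCm38), had the lowest ratio of all, 1.12. Its level was 8.70, 8.57 and 12.7 RPKM in LZ, 11.7, 11.6 and 9.38 in PD, 8.28, 11.5 and 9.47 in RS, 11.6, 9.28 and 10.9 in EES and 10.8, 10.8 and 11.3 in LES. Every stage overlapped the range of the LZ libraries. Tulp4 (NCBI Gene 68842, chr17:6106253-6240637), which encodes a protein of the tubby family, had the smallest spread over single libraries, a ratio of 1.39 between the highest and lowest of 15. It stood at 11.2, 10.2 and 10.7 RPKM in LZ, 10.1, 10.1 and 9.44 in PD, 9.07, 9.09 and 8.05 in RS, 9.13, 8.91 and 9.90 in EES and 9.56, 9.17 and 10.7 in LES. The LZ libraries were all above those of PD, RS and EES, so even this flat gene had an order within its narrow range. Rimklb (NCBI Gene 108653, chr6:122447296-122487062), a ligase that joins glutamate to citrate or N-acetylaspartate, had means of 22.1 ± 7.02 RPKM in LZ, 20.2 ± 2.98 in PD, 22.1 ± 3.14 in RS, 19.99 ± 1.60 in EES and 18.3 ± 0.536 in LES. Lgals1 (NCBI Gene 16852, chr15:78926725-78930465), the sugar-binding protein galectin-1, had means of 13.1 ± 2.99 RPKM in LZ, 14.2 ± 1.55 in PD, 14.4 ± 2.33 in RS, 11.8 ± 2.37 in EES and 14.7 ± 3.38 in LES. The ratio of stage means was 1.21 for Rimklb and 1.252 for Lgals1.

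After Tulp4, the smallest spread over single libraries was that of Malsu1, a factor of mitochondrial ribosome assembly, Ccnyl1, a cyclin Y-like protein needed for sperm, and Trmt1, which methylates tRNA. Malsu1 (NCBI Gene 75593, chr6:49073795-49139144) had means of 10.6 ± 0.391 RPKM in LZ, 9.18 ± 0.605 in PD, 9.01 ± 0.897 in RS, 8.09 ± 0.441 in EES and 8.54 ± 0.534 in LES, and its ratio of 1.304 was 3.10 in the authors' de novo gene models. Ccnyl1 (NCBI Gene 227210, chr1:64691041-64725646) had means of 19.2 ± 3.24 RPKM in LZ, 19.7 ± 0.486 in PD, 22.4 ± 0.682 in RS, 16.6 ± 1.04 in EES and 16.7 ± 0.663 in LES. Trmt1 (NCBI Gene 212528, chr8:84686324-84699808) had means of 14.04 ± 1.77 RPKM in LZ, 13.2 ± 0.717 in PD, 11.3 ± 1.16 in RS, 13.2 ± 2.44 in EES and 14.97 ± 0.112 in LES. At the other end of the library spread were Cul5, the nuclear pore gene Pom121, Ankrd49 and the galactokinase gene Galk1. Galk1 (NCBI Gene 14635, chr11:116008357-116012719) measured 7.70, 12.8 and 10.4 RPKM in LZ, 23.2, 19.4 and 17.6 in PD, 15.03, 16.4 and 14.8 in RS, 12.1, 11.8 and 10.6 in EES and 11.0, 11.5 and 9.98 in LES. All PD libraries were above those of the other 4 stages, so stages as well as libraries entered its library ratio of 3.01. Pom121 (NCBI Gene 107939, chr5:135376140-135404841) measured 7.71, 8.73 and 6.95 RPKM in LZ, 7.81, 8.76 and 8.10 in PD, 3.67, 7.18 and 5.64 in RS, 8.12, 6.18 and 9.10 in EES and 8.43, 11.7 and 6.71 in LES. Its RS and LES libraries were far apart within a stage. RS was below PD in every library, and all other pairs of stages overlapped.

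The ribosomal protein genes Rpl38 (NCBI Gene 67671, chr11:114667818-114672333) and Rpl28 (NCBI Gene 19943, chr7:4792965-4794547), both of the large subunit, came next after Qars. Rpl38 measured 33.4, 23.7 and 28.6 RPKM in LZ, 31.9, 26.1 and 28.1 in PD, 34.5, 25.6 and 31.5 in RS, 37.2, 28.7 and 32.5 in EES and 32.3, 28.4 and 32.1 in LES. The ranges of its libraries overlapped between every pair of stages. Rpl28 measured 6.67, 6.54 and 6.73 RPKM in LZ, 7.49, 7.93 and 6.68 in PD, 5.43, 8.19 and 6.60 in RS, 6.89, 5.95 and 6.91 in EES and 7.86, 7.83 and 7.81 in LES. Its 3 LES libraries agreed closely and were all above those of LZ and EES, while RS alone spanned the levels of the other stages. In the authors' de novo gene models the matching genes had higher ratios, 2.54 for Rpl38 and 3.49 for Rpl28, at lowest stage means of 0.599 and 0.440 RPKM, so their low ratios are those of the gene table. The 250 bases before the RefSeq starts of Qars, Rpl38 and Rpl28 (GRCm38.p6) are shown because these genes had the lowest ratios in that table. For Rpl38 the start used lies inside the gene's annotated span, downstream of its first base. Capitals mark matches to GGGCGG (also read as CCGCCC on the other strand) and to CCAAT (also read as ATTGG).
Qars (chr9:108507755-108508004, + strand): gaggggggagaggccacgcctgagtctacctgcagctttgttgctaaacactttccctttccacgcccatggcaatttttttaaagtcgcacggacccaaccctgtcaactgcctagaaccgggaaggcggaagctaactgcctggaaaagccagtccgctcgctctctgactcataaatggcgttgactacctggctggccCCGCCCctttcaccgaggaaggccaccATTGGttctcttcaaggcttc
Rpl38 (chr11:114668330-114668579, + strand): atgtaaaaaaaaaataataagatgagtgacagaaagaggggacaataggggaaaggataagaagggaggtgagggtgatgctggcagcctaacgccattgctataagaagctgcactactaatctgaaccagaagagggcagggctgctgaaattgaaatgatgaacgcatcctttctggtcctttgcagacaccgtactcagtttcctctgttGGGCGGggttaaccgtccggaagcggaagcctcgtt
Rpl28 (chr7:4792715-4792964, + strand): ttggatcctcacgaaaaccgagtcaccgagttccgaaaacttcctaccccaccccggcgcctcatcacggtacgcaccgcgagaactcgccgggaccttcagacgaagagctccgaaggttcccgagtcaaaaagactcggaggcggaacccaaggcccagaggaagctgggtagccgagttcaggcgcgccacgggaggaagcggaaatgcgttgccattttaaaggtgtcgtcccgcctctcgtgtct

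None of the 3 promoters held TATAAA, the core of the TATA box, on either strand. Qars held 1 GGGCGG and 1 CCAAT, Rpl38 held 1 GGGCGG, and Rpl28 held neither. GGGCGG, the letters bound by Sp-family factors, stood in 56.8% of the promoters of 155 stable genes with an entry and in 53.4% of those of all genes tested. CCAAT was present in 32.3% and 37.3%, both motifs being read on either strand. TATAAA, counted for these shares on the strand of the gene alone, was present in 1.94% and 4.22%. These shares are descriptions of letters in a window and name no bound factor.

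**Figure D3:**
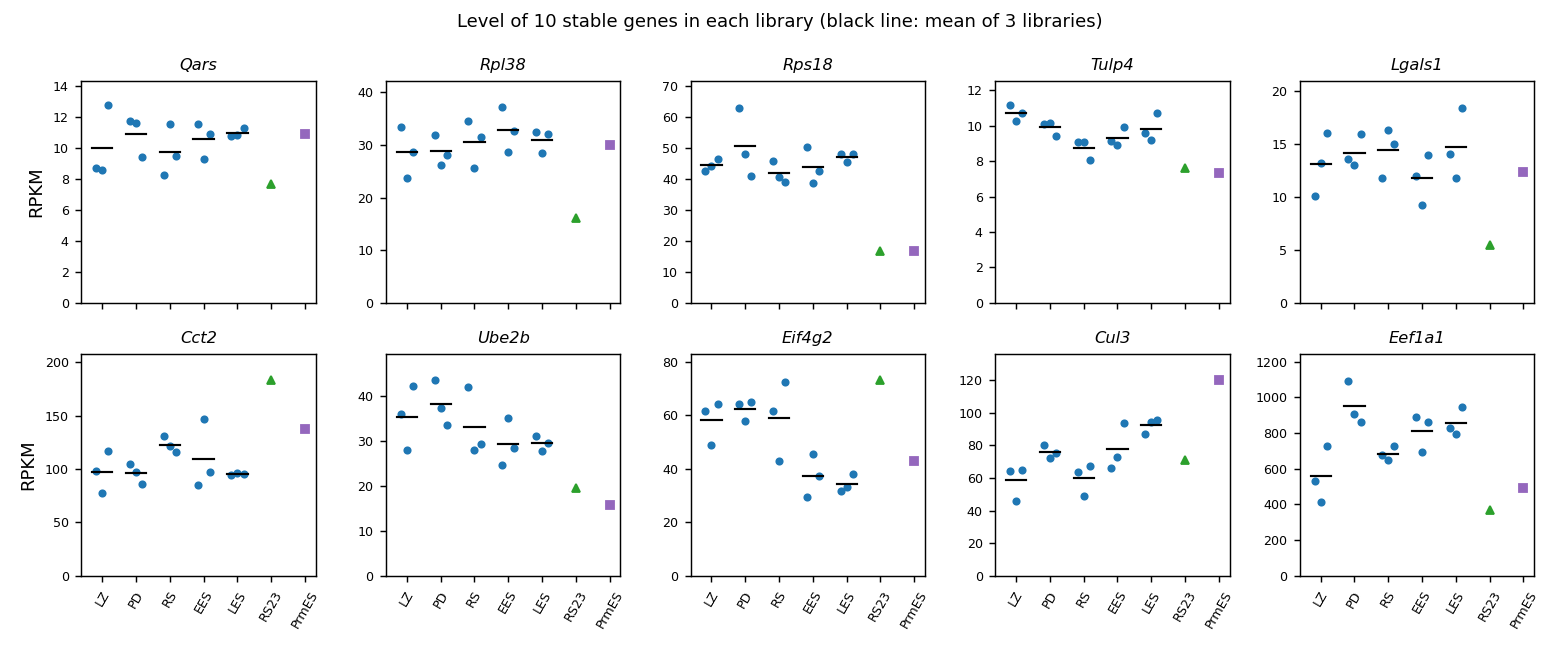
RPKM (vertical axes, from 0) of 10 stable genes in each library, grouped along the horizontal axis by stage, with blue points for single libraries, a black line for the mean of 3, a green triangle for RS23 and a purple square for PrmES. In each panel the 5 stage means lie within 2-fold, and RS23 and PrmES lie outside the range of the 15 libraries for several genes, such as Rps18 at 16.9 and 16.6 RPKM.

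On the RPKM scale, ribosomal proteins gave more stable genes than any other of the 28 function lists. The list of ribosomal protein genes held 80 genes that passed the filter, 58 reached 5 RPKM in every stage, and 35 of these (60.3%) were stable, beside 10.8% of all genes at that level. They were 15 of the small and 20 of the large subunit. The count depended on the scale. The rule found 25 ribosomal protein genes among 187 after scaling to reads in genes and 6 among 179 after quantile normalization. After scaling to equal medians it found 4 among 137, and none of the 35 was among these. Several ribosomal protein genes have near-identical copies and many pseudogenes, so how reads were split among them is uncertain for a single member. A pseudogene named after the gene was present in the annotation for 30 of the 35.

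Rplp0 (NCBI Gene 11837, chr5:115559467-115563729), which builds the base of the ribosomal stalk, was the most abundant of them. It measured 310.0, 281 and 385 RPKM in LZ, 371, 413 and 346 in PD, 255, 341 and 324 in RS, 578, 367 and 503 in EES and 502, 474 and 468 in LES. The LES libraries were all above LZ, PD and RS, and EES replicate 2 fell among the LZ and PD values. Rps15 (NCBI Gene 20054, chr10:80292431-80294114) of the small subunit measured 156, 164 and 186 RPKM in LZ, 258, 231 and 179.6 in PD, 117, 121 and 114 in RS, 186, 119 and 149 in EES and 170.4, 168 and 178 in LES. Its RS libraries were below every LZ, PD and LES library, and EES replicate 2 lay within their range. Rps18 (NCBI Gene 20084, chr17:33951998-33955665), at a ratio of 1.21, measured 42.5, 44.1 and 46.3 RPKM in LZ, 62.7, 48.1 and 40.9 in PD, 45.8, 40.6 and 39.1 in RS, 50.1, 38.6 and 42.6 in EES and 48.0, 45.5 and 48.0 in LES, and its libraries overlapped between all stages. Rpl29 (NCBI Gene 19944, chr9:106428889-106431568) measured 56.0, 52.6 and 74.7 RPKM in LZ, 117, 89.5 and 85.4 in PD, 76.5, 64.3 and 69.4 in RS, 129, 85.3 and 109.5 in EES and 115, 115 and 114 in LES. LZ and RS were both below PD, EES and LES in every library, a difference just within the limit at a ratio of 1.87.

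Among the 35, the highest stage was PD for 15, LES for 9, LZ for 8, EES for 3 and RS for none, and the lowest was RS for 15 and LZ for 12. Their median log2 level relative to LZ was 0.15 in PD, -0.08 in RS, 0.00 in EES and 0.12 in LES. The rule divided the 80 genes on these same values, so a difference between the 35 and the other 45 is built in. Of the 45, 22 were under 5 RPKM in a stage, among them Rps13 and Rps16, which met the ratio limit at 1.55 and 1.77. The highest mean was in LZ for 24 of the 45, in PD for 14 and in LES for 6. Their median ratio was 4.25, with 4 on the X chromosome (Rpl10, Rps4x, Rpl36a and Rpl39), and the 41 autosomal ones had medians relative to LZ of -0.80 in RS, -1.34 in EES and -1.44 in LES. The levels of all 80 genes summed to between 3429 and 5224 RPKM in the 15 stage libraries. In limma's test over all genes (adjusted p under 0.05 and at least 2-fold), 5 of the 80 genes rose and 30 fell from LZ to LES, beside 24.1% and 55.2% of all genes tested. After scaling to equal medians these counts turned to 44 that rose and 11 that fell, beside 5361 and 4694 of the 13260 genes tested. The direction for the family thus depends on the scale, and the counts over all genes turned as well. Since 35 of the 80 were chosen for small changes, nothing is read from their absence among the calls.

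**Figure D4:**
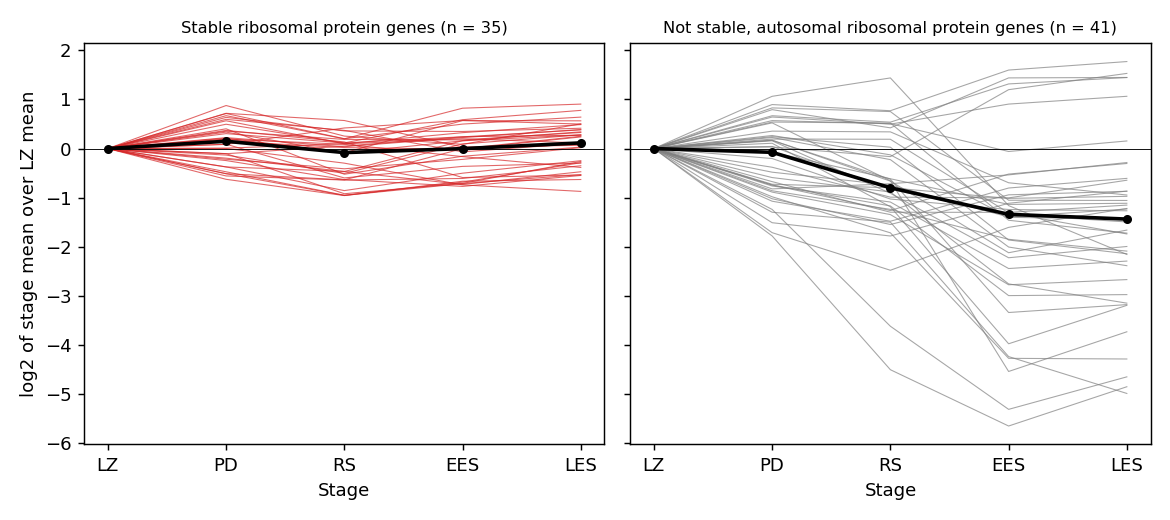
Lines give, for each gene, the log2 of its stage mean over its LZ mean (vertical axis) at the 5 stages (horizontal axis), for 35 stable ribosomal protein genes on the left and the 41 autosomal ones that are not stable on the right, with the median in black. The stable genes stay between -0.96 and 0.90, and the others reach from -5.65 to 1.77.

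Many ribosomal protein genes start transcription inside a run of pyrimidines, which in the RNA forms the 5′ terminal oligopyrimidine tract that couples translation to growth signals. The 30 bases around the RefSeq start (20 before it and 10 from it) are shown for a selection of stable ribosomal protein genes, with a run of at least 6 C or T over the start in capitals.
Rpl38 (chr11:114668560-114668589, + strand): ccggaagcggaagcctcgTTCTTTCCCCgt
Rpl28 (chr7:4792945-4792974, + strand): tcgtcccgcctctcgtgTCTCTCTTTCCgt
Rps18 (chr17:33955656-33955685, - strand): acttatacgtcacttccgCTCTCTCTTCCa
Rps27 (chr3:90213639-90213668, - strand): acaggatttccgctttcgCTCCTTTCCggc
Rplp0 (chr5:115559447-115559476, + strand): acgtcgtcttcgggtttcgaggaccgcctg
Rps15 (chr10:80292411-80292440, + strand): gccctcccggcagagctcgcgataactgcg

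The first 4 held runs of 10, 11, 11 and 9 pyrimidines, and Rplp0 and Rps15 held none at the annotated start. Rpl37a, also among the genes of lowest ratio, held a run of 3, under the limit of 6, and is not shown. Such a run was present at 9 of 26 starts of stable ribosomal protein genes with an entry (34.6%), at 9 of 34 of the other ribosomal protein genes (26.5%), at 5.43% of the other stable genes and at 6.25% of all genes tested. CCGGAAGT, the letters of an ETS-family site, stood in 7 of 26 promoters of the stable ribosomal protein genes (26.9%). It stood in 1 of 34 of the other ribosomal protein genes (2.94%) and in 6.32% of all. GGGCGG went the other way, with 30.8%, 61.8% and 53.4%. CCAAT stood in 38.5%, 20.6% and 37.3%, and TGACGTCA in 7.69%, 11.8% and 2.90%. These counts are small and a difference between the groups was not tested. Stable ribosomal protein genes were short, with a median exon length of 1659 bases, and so were the other ribosomal protein genes at 1972 bases, against 4198 bases for the other stable genes and 3537.5 for all genes tested.

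The counts of the other lists were of at most 5 stable genes each and are set beside the 10.8% of all 1804 genes at 5 RPKM in every stage, with nothing read from them about a list. Translation factors gave 3 stable genes of 30 at that level, near this share. Eef1a1 (NCBI Gene 13627, chr9:78478453-78481724), the elongation factor that brings aminoacyl-tRNA to the ribosome, had the highest mean of all stable genes. It measured 531, 414 and 726 RPKM in LZ, 1094, 907 and 861 in PD, 677, 652 and 726 in RS, 891, 693 and 859 in EES and 826, 796 and 946 in LES. The PD libraries were above all LZ and RS libraries, and LZ was below LES throughout. Eif4g2 (NCBI Gene 13690, chr7:111067985-111083030), an initiation scaffold without a cap-binding partner, measured 61.4, 49.0 and 64.3 RPKM in LZ, 64.2, 57.9 and 65.0 in PD, 61.7, 42.9 and 72.4 in RS, 29.3, 45.6 and 37.5 in EES and 31.6, 33.1 and 37.9 in LES. EES and LES were below LZ and PD in every library, at a ratio of 1.82. Gcn1 (NCBI Gene 231659, chr5:115565117-115622654), which senses stalled ribosomes, had means of 9.31 ± 2.40 RPKM in LZ, 15.2 ± 0.773 in PD, 13.9 ± 2.72 in RS, 10.5 ± 0.718 in EES and 9.85 ± 0.490 in LES.

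Genes used as references for RNA levels were divided. Of 39 tested, 17 reached 5 RPKM in every stage and 5 of those were stable: Eef1a1, Rplp0, Rps18, Rpl13a and Rpl19. None of the 5 still met the rule after scaling to equal medians. In RS23, Rplp0, Rps18 and Rpl19 were lower than in RS past 2-fold, at log2 differences of -1.39, -1.31 and -1.98. In PrmES, Rps18, Rpl19 and Rpl13a were lower than in LES past 2-fold. Eef1a1 stayed within 2-fold in both. Rpl13a (NCBI Gene 22121, chr7:45125563-45128745) had means of 85.4 ± 3.68 RPKM in LZ, 73.4 ± 12.2 in PD, 64.2 ± 6.999 in RS, 73.3 ± 17.3 in EES and 86.5 ± 5.89 in LES. Rpl19 (NCBI Gene 19921, chr11:98022003-98030493) had means of 69.9 ± 1.93 RPKM in LZ, 54.0 ± 14.1 in PD, 38.6 ± 2.34 in RS, 49.4 ± 10.4 in EES and 58.9 ± 1.75 in LES. Other widely used references lay outside the rule. Actb, cytoplasmic actin, had means of 64.2 ± 3.57 RPKM in PD and 488 ± 22.7 RPKM in LES, a ratio of 7.61. Ppia, a peptidyl-prolyl isomerase, had 123 ± 12.4 RPKM in PD and 10.4 ± 3.10 in LES. Gapdh, the somatic glycolytic enzyme, was at 2.13 ± 0.211 RPKM in LZ and under 1 RPKM in the other stages, and Hprt on the X chromosome was at 34.6 ± 7.77 RPKM in LZ and 0.015 ± 0.013 RPKM in RS. Ywhaz came closest among the 8 well-known references compared, at a ratio of 2.62, while Tbp, B2m and Sdha had ratios of 24.4, 15.3 and 16.2.

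In protein folding and turnover, Cct2 (NCBI Gene 12461, chr10:117050997-117063852), a subunit of the chaperonin that folds actin and tubulin, was 1 of 2 stable genes among 33 chaperone genes at 5 RPKM in every stage, the other being the mitochondrial Dnaja3. It measured 97.9, 77.5 and 117 RPKM in LZ, 105, 96.7 and 85.8 in PD, 131, 122 and 116 in RS, 84.6, 147 and 97.6 in EES and 94.1, 96.3 and 95.3 in LES. The RS libraries were above those of PD and LES, and EES replicate 2 was the highest of all 15. Ube2b (NCBI Gene 22210, chr11:51985138-52004145), a ubiquitin-conjugating enzyme whose loss makes male mice sterile, measured 36.1, 28.0 and 42.2 RPKM in LZ, 43.5, 37.4 and 33.7 in PD, 42.1, 28.0 and 29.3 in RS, 24.7, 35.1 and 28.5 in EES and 31.1, 27.9 and 29.6 in LES. PD was above LES in every library, and all other pairs of stages overlapped. Among ubiquitin ligases and their scaffolds, 4 of 18 were stable: Cul3, Cul5, Eloc and Ubr4. Cul3 (NCBI Gene 26554, chr1:80264923-80340690), a scaffold of cullin-RING ligases, measured 64.6, 46.2 and 65.2 RPKM in LZ, 80.4, 72.5 and 75.4 in PD, 63.8, 49.1 and 67.4 in RS, 66.2, 73.2 and 93.9 in EES and 87.1, 94.4 and 95.9 in LES. The LES libraries were above all of LZ, PD and RS and overlapped EES. Cul5 had means of 11.8 ± 2.12 RPKM in LZ, 9.35 ± 1.16 in PD, 12.6 ± 5.39 in RS, 6.48 ± 1.40 in EES and 6.64 ± 0.875 in LES, and its RS libraries were far apart at 16.6, 6.46 and 14.8 RPKM.

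Among mitochondrial genes, 5 of 46 of the respiratory chain and ATP synthase were stable (10.9%, near the 10.8% of all genes at that level), and 4 of 17 of the mitochondrial ribosome (23.5%). Ndufb9 (NCBI Gene 66218, chr15:58933801-58939516), of complex I, measured 58.6, 59.1 and 71.1 RPKM in LZ, 128, 107 and 88.6 in PD, 58.6, 58.2 and 57.4 in RS, 60.5, 58.3 and 61.0 in EES and 50.1, 53.2 and 59.1 in LES. Its PD libraries were above all others, and the other 4 stages were close, so the ratio of 1.99 came from PD alone. Atp5c1 (NCBI Gene 11949, chr2:10056030-10080510), the gamma subunit of ATP synthase, measured 29.9, 26.2 and 32.3 RPKM in LZ, 61.2, 50.6 and 48.5 in PD, 47.8, 51.5 and 43.4 in RS, 36.1, 34.9 and 36.3 in EES and 40.5, 35.2 and 38.5 in LES, with LZ below every other library. Atp5e (NCBI Gene 67126, chr2:174461075-174464101), the epsilon subunit, had means of 40.8 ± 3.12 RPKM in LZ, 50.2 ± 11.5 in PD, 35.8 ± 3.81 in RS, 40.8 ± 10.7 in EES and 43.5 ± 6.20 in LES. The other stable members of these groups were Ndufb7, Atp5h, Mrpl22, Mrpl30, Mrpl55 and Mrps15. Mrpl55 was highest in PD at 43.3 ± 4.95 RPKM and Mrpl30 lowest there at 9.41 ± 0.423 RPKM, so members of the same ribosome differed in their direction within the limit.

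Signalling and trafficking added smaller groups. Of 15 kinase and signalling genes at 5 RPKM in every stage, 3 were stable: the MAP kinase kinase Map2k2, the polarity kinase Stk11 and the GTPase Hras. Map2k2 (NCBI Gene 26396, chr10:81105913-81124697) had means of 18.6 ± 5.03 RPKM in LZ, 26.3 ± 3.40 in PD, 22.5 ± 1.14 in RS, 28.3 ± 4.70 in EES and 32.5 ± 1.06 in LES, with its lowest level in LZ. Stk11 (NCBI Gene 20869, chr10:80115767-80130679) had means of 14.6 ± 2.24 RPKM in LZ, 13.4 ± 0.219 in PD, 18.9 ± 4.56 in RS, 11.3 ± 0.342 in EES and 11.6 ± 1.18 in LES, with its highest in RS. The Rab and SNARE genes Rab22a, Gdi2 and Stx17 were 3 stable genes of 9. Gdi2 (NCBI Gene 14569, chr13:3538075-3566261), which extracts Rab GTPases from membranes, had means of 22.6 ± 2.60 RPKM in LZ, 30.3 ± 1.70 in PD, 35.8 ± 5.01 in RS, 27.6 ± 3.91 in EES and 29.3 ± 0.979 in LES. The nuclear pore and transport genes Nupl1, Pom121 and Xpo6 were 3 of 22. Xpo6 (NCBI Gene 74204, chr7:126101718-126200539), which exports actin from the nucleus, had means of 20.8 ± 4.46 RPKM in LZ, 24.0 ± 1.09 in PD, 32.1 ± 6.65 in RS, 19.5 ± 2.45 in EES and 17.5 ± 1.37 in LES. Outside the lists, the lysosomal membrane protein gene Laptm4a (NCBI Gene 17775, chr12:8921307-8938742, chosen after its values were seen) measured 71.5, 61.4 and 92.0 RPKM in LZ, 46.1, 45.2 and 47.1 in PD, 70.1, 65.5 and 59.4 in RS, 52.1, 105 and 53.8 in EES and 61.0, 53.1 and 65.5 in LES, and EES replicate 2 was the highest of the 15 libraries.

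No stable gene was found among 15 proteasome genes, 8 splicing genes, 10 chromatin genes, 22 microtubule and motor genes, 15 germ cell identity genes, 6 SUMO genes and 3 14-3-3 genes that reached 5 RPKM in every stage. At 10.8% of all genes, lists of this size would hold few or none, so nothing is read from these counts. Of the testis cell type markers, 1 of LZ, 2 of PD and 6 of elongating spermatids reached 5 RPKM in every stage, and none of these was stable. Of the 195 genes, 79 were in at least 1 list and 116 in none. No stable gene lay on the X or Y chromosome. Only 2 of the 1804 genes at 5 RPKM in every stage were X-linked, of 527 X-linked genes that passed the filter, and none was among 35 Y-linked genes.

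By annotation, 185 stable genes were protein coding, 4 were transcribed pseudogenes, 3 were miRNA loci and 3 were lncRNAs. The labels name a TruSeq kit and no small RNA protocol, and 9 of these 10 non-coding genes overlap another gene, so their reads and those of the other gene cannot be told apart. Mir682 (NCBI Gene 751556, chr13:75645046-75645141), which overlaps Gm4149 and has a recovered exon length of 276 bases, had the second highest mean of all, 425 RPKM, with stage means from 343 ± 22.8 in LZ to 469.9 ± 90.6 in EES. Mir719 overlaps the stable gene Nupl1, and Mir5121 overlaps the stable gene Rpl13a. The pseudogene Rps15a-ps6 (NCBI Gene 100042173, chr11:6172508-6173331), within Nudcd3, had means of 8.94 ± 1.58 RPKM in LZ, 8.35 ± 1.09 in PD, 6.08 ± 1.97 in RS, 6.44 ± 0.751 in EES and 7.11 ± 1.054 in LES. Npm3-ps1, which overlaps no other gene in the annotation, had means of 30.8 ± 9.44 RPKM in LZ and 16.9 ± 1.87 RPKM in LES.

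RS23 and PrmES played no part in choosing the genes. The RS, EES and LES means they are set against did, so only the new library in each comparison is independent of the rule. With 1 library each there is no replicate check and no test, and a difference of at least 2-fold (on log2 of RPKM plus 0.01) is a description. Staining, titled age or genotype, and column prefix all differ between these libraries and the 15, and cannot be told apart. In RS23, 53 of the 195 genes lay past 2-fold from the RS mean (27.2%, beside 27.1% of all genes tested and 24.9% of the 1804 genes at 5 RPKM in every stage). They were 6 higher and 47 lower, or 3.08% and 24.1%, beside 1.27% and 23.6% of the 1804. In PrmES, 45 genes lay past 2-fold from the EES mean (23.1%, beside 32.4% of the genes tested and 21.2% of the 1804), 7 higher and 38 lower, or 3.59% and 19.5%, beside 4.77% and 16.4% of the 1804. From the LES mean, 47 genes lay past 2-fold (24.1%, beside 25.9% and 22.7%). Here 8 of the 195 were higher and 39 lower, or 4.1% and 20%, beside 10.5% and 12.2% of the 1804. With both directions together the share was near that of the 1804 genes in each of the 3 comparisons, while in PrmES against LES the split by direction was not. With 1 library a group this was not tested.

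Many ribosomal protein genes, stable or not, were past 2-fold in these libraries. In RS23, 20 of the 35 stable ribosomal protein genes were past 2-fold, 18 of them lower, against 33 of the 160 other stable genes (57.1% and 20.6%). In PrmES the counts against LES were 20 and 27 (57.1% and 16.9%). In that comparison 19 of the 35 were lower (54.3%) and 20 of the 160 (12.5%), beside 12.2% of the 1804. Higher were 1 of the 35 and 7 of the 160 (2.86% and 4.38%), beside 10.5%. The median log2 difference of RS23 from RS was -1.25 for the stable ribosomal protein genes and -0.43 for the other stable genes. For PrmES against LES it was -1.22 and -0.24. Of the 45 ribosomal protein genes that were not stable, 15 were lower and 7 higher past 2-fold in RS23, and 17 lower and 4 higher in PrmES against LES, with medians of -0.52 and -0.43. The higher ones in RS23 included the 4 X-linked genes, whose RS means were near the floor, the highest being 0.159 RPKM for Rpl10. The 41 autosomal ones had 15 lower and 3 higher in each comparison, with medians of -0.61 and -0.35. Among the stable ones, the 30 with a named pseudogene had a median of -1.26 in RS23 and the 5 without one -0.33. Among the others, the 33 with a named pseudogene, which include the 4 X-linked genes, had -0.31 and the 12 without one -1.03. The part of read placement in this was not tested.

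Rpl29 differed the most. At 76.5, 64.3 and 69.4 RPKM in the RS libraries and 115, 115 and 114 RPKM in LES, it stood at 3.10 RPKM in RS23 and 3.38 RPKM in PrmES. The log2 difference was -4.50 from RS and -5.08 from LES. Both libraries lay far under the lowest of the 15. Rpsa (NCBI Gene 16785, chr9:120127766-120132369), a small subunit protein that also binds laminin, measured 25.9, 22.8 and 24.0 RPKM in RS and 2.52 RPKM in RS23. PrmES was at 2.67 RPKM, against 31.9, 31.0 and 34.5 RPKM in LES. Rps15 stood at 27.8 and 23.5 RPKM in RS23 and PrmES. Rpl8 (NCBI Gene 26961, chr15:76904071-76906318) differed little, at 141 and 176 RPKM, against means of 173 ± 8.82 RPKM in RS and 227 ± 8.14 RPKM in LES.

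Outside the ribosome, Sh3bgrl3 (NCBI Gene 73723, chr4:134127406-134128733), a small thioredoxin-like protein, was at 2.75 RPKM in RS23 against 12.7, 16.1 and 14.6 RPKM in RS. In PrmES it was at 0.661 RPKM against 7.02, 7.07 and 11.5 RPKM in LES. Tsga10 (NCBI Gene 211484, chr1:37754570-37866426), a testis protein of the sperm tail, was higher in both, at 61.4 RPKM in RS23 against 29.8, 17.4 and 36.1 RPKM in RS, and at 66.9 RPKM in PrmES against 27.4, 28.3 and 28.5 RPKM in LES. The tyrosine kinase gene Fer (NCBI Gene 14158, chr17:63862073-64146519) was at 42.4 RPKM in PrmES against 17.4, 14.9 and 18.5 RPKM in LES. The pseudogene Rps15a-ps6 was at 46.1 RPKM in RS23 and 55.6 RPKM in PrmES, at log2 differences of 2.92 from RS and 2.97 from LES. Mir5121, which overlaps Rpl13a, was at 62.2 RPKM in RS23, a log2 difference of 3.19 from RS, and at 5.70 RPKM in PrmES. The part of read placement in these values was not tested. Rpl13 (NCBI Gene 270106, chr8:123102350-123105244) was past 2-fold in RS23 and not in PrmES, at 49.8 RPKM against 14.2, 11.9 and 11.2 RPKM in RS. Of the flattest genes, Qars stood at 7.69 RPKM in RS23 and 10.9 RPKM in PrmES, and Tulp4 at 7.59 and 7.32 RPKM. Each of these 4 values lay within 2-fold of the matching stage means. Among the other genes named for the lowest ratios, Rpl38 and Rimklb also stayed within 2-fold in both libraries, and others did not. Rpl28, Rps18, Rps27 and Rps27rt were lower past 2-fold in both. Lgals1 was lower past 2-fold in RS23 alone, at 5.50 RPKM against a mean of 14.4 ± 2.33 RPKM in RS. Rpl37a was higher past 2-fold in PrmES alone. Sertoli cell markers summed to 28.1 RPKM in RS23 and 94.2 RPKM in PrmES, above the highest sums in RS and LES respectively, and elongating spermatid markers to 333 RPKM in RS23, under the lowest sum in RS. In PrmES elongating spermatid markers summed to 76925 RPKM, under the lowest sum in LES, and 3 erythroid markers to 20.7 RPKM, against 1.86 to 5.69 RPKM in LES. Their part in these differences was not tested.

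**Figure D5:**
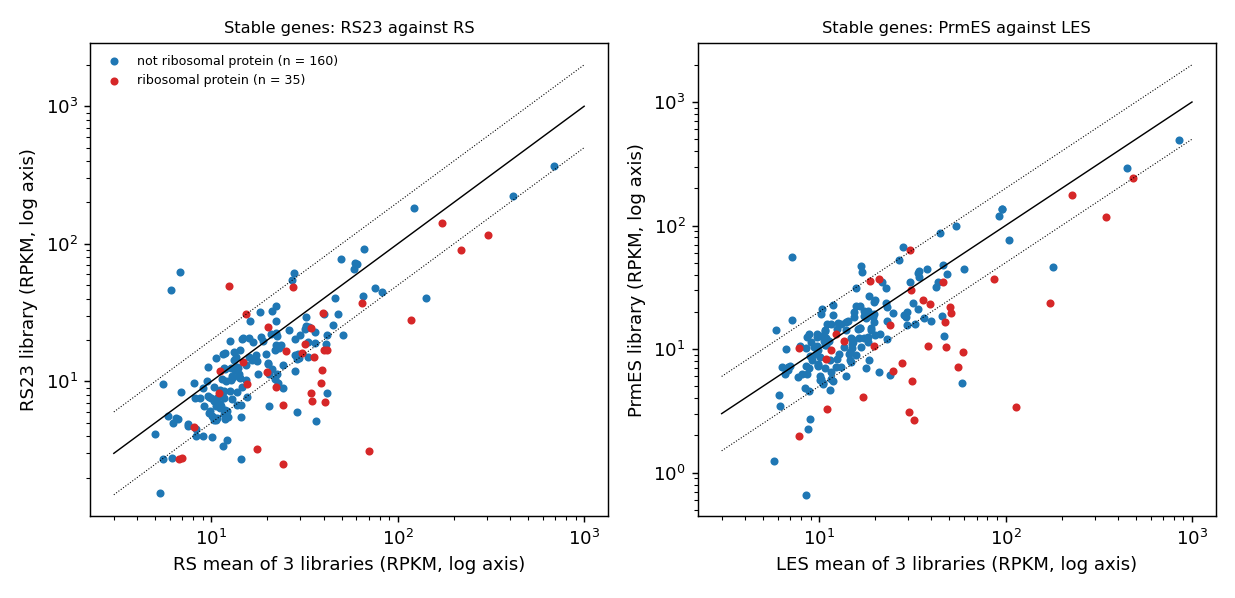
Each point is 1 stable gene, with its mean in 3 libraries (RS on the left, LES on the right, horizontal log axes, RPKM) against its level in the single library RS23 or PrmES (vertical log axes, RPKM), red for 35 ribosomal protein and blue for 160 other genes. The solid line marks equal levels and the dotted lines 2-fold, and red points are 20 of the 53 genes past 2-fold on the left and 20 of the 47 on the right.

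The authors' second table, of genes assembled de novo from the same reads, gave another set of gene models. Of the 195 genes, 137 matched a de novo gene that covered at least 50% of their exon bases. Both limits of the rule were kept by 99 of these (72.3%), and the ratio limit alone by 117. Among ribosomal protein genes 16 of 25 matched genes kept both limits, and among the others 83 of 112. A ratio above 3 was found for 10 matched genes. They were Rpl28 at 3.49, Rps6 at 19.9, Rpl17 at 17.2, Rps23 at 10.8, Gemin6 at 10.3, Ndufb9 at 6.27, and Rpl31-ps12, Malsu1, Ubtd2 and Mrps15, named after their values were seen. Both tables come from the same reads, so this is a description of how the gene model enters the value.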

How the data were processed

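RNA was measured in 17 sorted germ cell libraries. Both deposited tables give log2 values: RPKM was multiplied by 100 and 1 was added before the logarithm, which acts as a pseudocount of 0.01 RPKM. Multiplied by the exon lengths of the deposited annotation, the de novo table gave whole reads for 100% of its genes (within 0.01 read), and from these each library's total was recovered. For the gene table, an exon length was recovered as the shortest that made reads whole in all 17 libraries, so whole reads there are not a check. The submitters' processing notes name Trim Galore, STAR, GRCm38 and mm10, with no versions or settings. The deposited annotation holds other values, namely transcript and exon positions, from StringTie 1.3.4d, per the file headers. How strand and RNA selection were handled: not given in the sources used here.

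RPKM was computed as 2 to the power of the deposited value, minus 1, divided by 100. Genes at 1 RPKM or more in at least 3 of 15 libraries (13260) entered limma 3.58.1 in R 4.3.3 with a mean-variance trend, all 15 libraries sharing the spread, and p-values were adjusted by Benjamini-Hochberg over all genes tested. A call needed an adjusted p under 0.05 and a 2-fold change. The code was tested on simulated data. Further computing used Python 3.11.15 and pandas 2.3.3. Symbols, positions and promoters came from RefSeq on GRCm38.p6 (24570 of 24594 gene IDs found; promoters for 155 of the 195 genes), and the sequences are credited to it.

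The members and the 28 function and 11 marker lists were chosen with earlier results of these data known. Genes were named by rule: the 10 highest means, the 10 lowest ratios, those just inside and outside the limits, reference genes, up to 4 genes of highest mean for lists with at least 3 stable genes, the 5 largest differences each way in RS23 and PrmES, the 6 largest and smallest library spreads, and non-coding members, passing over clone names; the text shows a selection of these. Smaller lists are named by their stable members, and some genes are not reported here. Alternatives covered scaling, pseudocount, filter, limits, averaging, single libraries left out, gene models and a replicate block.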

Additional observations from a re-analysis of the deposited data

How the results depend on the processing

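The count of stable genes stayed between 183 and 208 when each stage library was left out in turn (lowest without LZ replicate 3), with 175 to 194 of the 195 genes shared. It was 298 with a level limit of 1 RPKM, 123 with 10 RPKM, 43 with a ratio limit of 1.5 and 455 with a limit of 3. Of the 137 genes among the 195 that matched a de novo gene, 99 kept both limits there. The rule was not applied to all de novo genes, so this is not such a count. Requiring all 15 libraries to lie within 2-fold, an alternative chosen after seeing the data, gave 61. Counts near 195 under other scalings held different genes: 122 of 187 after scaling to reads in genes, 50 of 179 after quantile normalization and 4 of 137 after median centring were among the 195.

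Over all genes tested, limma's F test over the 5 stages called 12895 genes and 19402 with no filter (11505 to 12916 leaving out a library), and PD to RS called 5124, or 3247 with a pseudocount of 1 RPKM. EES to LES called 1 gene, 0 with a pseudocount of 1 RPKM or scaled to reads in genes, 138 with no filter, 23 after median centring, 8 without LZ replicate 3 and EES replicate 2, and 4 to 53 leaving out a library (53 without LES replicate 1), so this count is not stable. The cause was not tested. With the replicate number as a block EES to LES called 0 genes, and the counts of the other comparisons stayed within 1.5 times. No pairing by number was seen: deviations of same-numbered libraries correlated at -0.25 to 0.24 (median -0.01), and 6 of 15 libraries correlated best with their own number. The deviations were taken from means of only 3 libraries, so this check could not exclude pairing.

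At a limit of 1.5-fold, 108 stable genes differed in RS23 from RS, 92 in PrmES from EES and 90 in PrmES from LES. After median centring the 2-fold counts in PrmES were 69 and 72. Leaving out a library gave 44 to 60, 45 to 48 and 45 to 49.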
